A study of Mus musculus with 4 samples.

Results

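Of 50704 merged open regions on the 19 autosomes of mouse embryonic stem cells (ESCs), 9791 lay between genes but close to one. A region was a set of overlapping ATAC-seq peaks from any of 4 libraries. It was kept when less than 50% of its bases were soft-masked as repeats, when it touched no annotated gene body of GENCODE release 21, and when the nearest transcript start of any gene was more than 1 kb and at most 50 kb away. ATAC-seq cuts and tags DNA with a transposase wherever chromatin is open, and its peaks are stretches where a caller found insertions piled up. The cells were E14, a line of mouse ESCs grown with serum and LIF, the cytokine that keeps them pluripotent. They carried a lentiviral pLKO hairpin against GFP (shGFP, 1 library) or against luciferase (shLuc, 3 libraries), and all of them were selected with puromycin for 2 days and harvested after 2 more. Neither target is a mouse gene, so every library is a control with a non-targeting hairpin. Neither the labels nor the list of samples in the study's supplement says whether the shLuc libraries came from separate cultures, so the spread between them may be technical.

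Open chromatin between genes is where many enhancers lie, which bind sequence-specific factors and raise the transcription of a gene at a distance. In ESCs such elements are known to bind OCT4, SOX2, NANOG, KLF4 and ESRRB, often at a composite motif on which OCT4 and SOX2 sit side by side. Other intergenic open sites bind CTCF, which holds chromatin loops in place. The nearest gene is a convention for naming such a site and is not known to be the gene it acts on.

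The sequences below show what the regions look like at their centres, on the plus strand of GRCm38 (mm10). Capitals mark matches to the motifs described later, on either strand. The first 6 were found in all 4 libraries, and each has as its nearest gene a member of a list of pluripotency and LIF pathway genes. Fgfbp1 encodes an FGF-binding protein, Dppa3 the germline and naive-state protein STELLA, Zfp42 the naive marker REX1, Socs3 the feedback inhibitor of LIF signalling, Sall4 a zinc-finger factor that acts with OCT4, and Jarid2 a subunit of Polycomb complex 2.
Fgfbp1 region (chr5:43983261-43983380, plus strand): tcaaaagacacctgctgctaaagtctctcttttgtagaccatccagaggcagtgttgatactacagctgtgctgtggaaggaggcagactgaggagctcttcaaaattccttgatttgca
Dppa3 region (chr6:122633400-122633519, plus strand): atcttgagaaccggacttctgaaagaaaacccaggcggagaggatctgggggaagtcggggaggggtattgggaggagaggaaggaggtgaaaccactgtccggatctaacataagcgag
Zfp42 region (chr8:43320987-43321106, plus strand): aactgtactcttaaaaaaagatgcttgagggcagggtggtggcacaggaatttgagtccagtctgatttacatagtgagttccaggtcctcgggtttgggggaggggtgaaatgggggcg
Socs3 region (chr11:117949700-117949819, plus strand): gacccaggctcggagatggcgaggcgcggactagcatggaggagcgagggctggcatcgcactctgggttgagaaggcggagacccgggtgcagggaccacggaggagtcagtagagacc
Sall4 region (chr2:168791230-168791349, plus strand): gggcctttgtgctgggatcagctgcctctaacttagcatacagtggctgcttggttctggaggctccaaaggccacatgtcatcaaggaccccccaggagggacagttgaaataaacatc
Jarid2 region (chr13:44705580-44705699, plus strand): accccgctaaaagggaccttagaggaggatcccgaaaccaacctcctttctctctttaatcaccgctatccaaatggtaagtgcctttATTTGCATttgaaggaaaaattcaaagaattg
Of these 6 windows only that near Jarid2 held a match, to the octamer ATGCAAAT bound by OCT factors.

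The next 4 are the centres of the widest regions in all 4 libraries that held any of the 14 motifs. They lay nearest to Gm3317 and Gm10128, predicted genes on chromosome 14, to Ccne1, which encodes cyclin E1, and to Abt1, which encodes a nuclear factor of basal transcription.
Gm3317 region (chr14:5148971-5149090, plus strand): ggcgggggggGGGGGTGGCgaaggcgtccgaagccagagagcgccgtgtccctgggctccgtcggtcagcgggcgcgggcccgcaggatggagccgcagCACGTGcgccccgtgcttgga
Ccne1 region (chr7:38085663-38085782, plus strand): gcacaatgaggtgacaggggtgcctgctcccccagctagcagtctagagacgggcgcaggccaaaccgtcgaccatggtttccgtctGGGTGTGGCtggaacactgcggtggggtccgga
Gm10128 region (chr14:7658473-7658592, plus strand): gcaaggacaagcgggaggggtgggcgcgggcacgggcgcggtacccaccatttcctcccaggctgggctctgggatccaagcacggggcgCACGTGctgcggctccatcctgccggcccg
Abt1 region (chr13:23412304-23412423, plus strand): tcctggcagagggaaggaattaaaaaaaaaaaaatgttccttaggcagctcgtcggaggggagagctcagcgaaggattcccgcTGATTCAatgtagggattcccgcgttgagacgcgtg
Of the 50-base words in the region near Gm3317, 100% occurred elsewhere in the genome, and of those in the region near Gm10128 75.2% did. For the regions near Ccne1 and Abt1 the shares were 0% and 0.760%.

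The last 7 windows were chosen after the values were seen. They show the match to the CTCF motif in the next 2 widest regions in all 4 libraries that held it, the match to the OCT4-SOX2 composite in another 2, and the region closest to the start of each of Pou5f1 (which encodes OCT4), Nanog and Klf4.
Gm49580 (CTCF) region (chr16:18036807-18036926, plus strand): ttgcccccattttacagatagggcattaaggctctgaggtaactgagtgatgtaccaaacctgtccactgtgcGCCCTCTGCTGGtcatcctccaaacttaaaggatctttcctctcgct
Snord12 (CTCF) region (chr2:167072075-167072194, plus strand): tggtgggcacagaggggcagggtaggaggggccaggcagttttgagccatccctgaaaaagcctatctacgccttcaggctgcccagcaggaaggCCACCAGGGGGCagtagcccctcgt
Gm25100 (OCT4-SOX2) region (chr7:3586397-3586516, plus strand): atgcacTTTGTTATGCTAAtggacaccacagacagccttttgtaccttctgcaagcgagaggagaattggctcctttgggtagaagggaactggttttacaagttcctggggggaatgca
Gm11189 (OCT4-SOX2) region (chr11:53202559-53202678, plus strand): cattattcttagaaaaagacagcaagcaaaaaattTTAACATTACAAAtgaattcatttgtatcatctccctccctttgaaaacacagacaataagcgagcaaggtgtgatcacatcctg
Pou5f1 region (chr17:35504053-35504172, plus strand): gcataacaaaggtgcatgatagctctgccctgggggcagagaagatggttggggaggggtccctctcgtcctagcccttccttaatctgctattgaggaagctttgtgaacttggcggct
Nanog region (chr6:122702635-122702754, plus strand): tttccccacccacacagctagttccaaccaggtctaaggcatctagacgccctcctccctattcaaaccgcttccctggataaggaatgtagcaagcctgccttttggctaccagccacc
Klf4 region (chr4:55514919-55515038, plus strand): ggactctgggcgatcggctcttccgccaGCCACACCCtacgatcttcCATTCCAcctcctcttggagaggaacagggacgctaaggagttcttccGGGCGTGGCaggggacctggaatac
The windows near Pou5f1 and Nanog held none of the 14 motifs, and that near Klf4 held matches to the KLF and TEAD motifs.

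The libraries differed in how much they found. Over the autosomes shGFP had 40290 peaks and the shLuc libraries had 17269, 39756 and 30336 (replicates 1, 2 and 3). The lists give positions only and carry no depth. The supplement lists the fewest total reads for shLuc replicate 1, the library with the fewest peaks, and those totals were not used here. Of 10 ESC marker genes 5 had an open start, meaning a peak at most 1 kb away, in some library, with Tfcp2l1 and Zfp42 in all 4 libraries and Pou5f1, Nanog, Sox2, Dppa5a and Tdgf1 in none. Of 17 markers of fibroblasts, neural cells, endoderm, muscle and blood, 8 had one. An open start near a marker therefore did not separate ESCs from other cells in these lists.

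The intergenic regions near genes numbered 7167 in shGFP, against 1651, 7012 and 4666 in shLuc replicates 1, 2 and 3. shLuc replicate 1 stood far below the other libraries, and shGFP and shLuc replicate 2 were close to each other. As a share of a library's peaks they made up 17.8% in shGFP, compared with 9.58%, 17.7% and 15.4% in shLuc (mean 14.2% ± 4.17, SD, n = 3). The shGFP value was within 1 SD of the shLuc mean, and with 1 library against 3 an exact permutation test cannot give a p below 0.25, so none was run. With the widest peaks of each list kept at the length of the shortest, the order turned, to 8.22% in shGFP and a mean of 9.004% in shLuc. Peaks of this class covered 3.95 Mb in shGFP and 0.737, 3.85 and 2.53 Mb in shLuc. Promoter regions moved the other way, from 36.1% of peaks in shGFP to 58.1% in shLuc replicate 1, so the shortest list was the one richest in promoters.

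**Figure D1:**
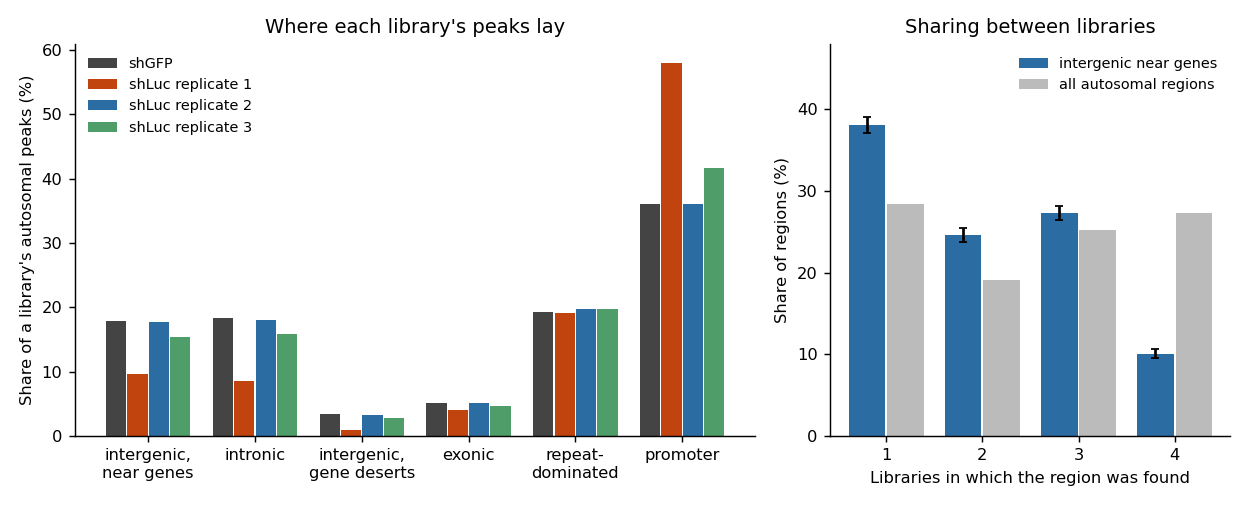
Left, share of each library's autosomal peaks (%) in 6 classes of region, 1 bar per library. Right, share of regions (%) found in 1, 2, 3 or 4 libraries, for intergenic regions near genes (bars with Wilson 95% intervals) and for all autosomal regions. shLuc replicate 1 had 9.58% of its peaks in the intergenic regions near genes against 15.4 to 17.8% in the other libraries, and 10.1% of these regions were found in all 4 libraries against 27.3% of all autosomal regions. All autosomal regions include 16194 promoter regions, which were shared more often.

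Few of the regions were found in every library. Of the 9791, 984 were found in all 4 libraries, which is 10.1% (Wilson 95% interval 9.47 to 10.7%), against 27.3% of all autosomal regions. A further 2671 (27.3%) were found in 3 libraries and 2411 (24.6%) in 2, against 25.3% and 19.05% of all autosomal regions. Another 3725 (38.05%) were found in only 1 library, against 28.4% of all autosomal regions. The intervals cover counting error over regions only, and regions of 1 library are not replicates. shLuc replicate 1 was the library most often missing, as 2394 regions were in the other 3 libraries and not in it. That was 24.45% of the regions, close to the 22.1% of all autosomal regions. Without that library 35.2% of the regions were found in all 3 that remained.

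The comparison of shGFP with shLuc asks how far a pair of non-targeting hairpins differ. Regions found only in shGFP numbered 1573 (16.1%), against 11.7% of all autosomal regions. The shLuc libraries also had regions of their own, with 200 found only in replicate 1, 1486 only in replicate 2 and 466 only in replicate 3. These were 2.04%, 15.2% and 4.76% of the regions, against 1.88%, 11.35% and 3.455% of all autosomal regions. The number found only in shGFP was thus close to that found only in shLuc replicate 2, whose list was nearly as long. Without shLuc replicate 2 the regions found only in shGFP rose to 3042. Regions found in all 3 shLuc libraries but not in shGFP numbered 24 (0.245%), against 0.343% of all autosomal regions. This count rested on shLuc replicate 1, and without it there were 386. It was 96 without replicate 3 and 37 without replicate 2.

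A peak was found again in a second library the more often the wider it was. Of 1674 shGFP peaks under 350 bp in these regions, 48.1% lay in a region also found in shLuc replicate 2 (45.7 to 50.5%). The share was 65.9% from 350 to under 500 bp, 82.1% from there to under 800 bp and 88.9% at 800 bp or more. In the other direction, from shLuc replicate 2 to shGFP, it ran from 52.7% to 87.5% over the same widths. Intronic peaks of shGFP had shares of 44.9%, 63.8%, 79.2% and 87.1%, and promoter peaks 51.04%, 71.1%, 88.8% and 95.9%. Against shLuc replicate 3 the shares were 26.4%, 44.8%, 67.6% and 76.4% for peaks near genes, 27.1%, 44.98%, 64.5% and 76.9% for intronic peaks and 29.6%, 55.7%, 79.9% and 90.7% for promoter peaks. Promoter peaks thus had the highest share at each width against both libraries, while the order of the other classes varied, and these differences were not tested. These peaks were also narrower than promoter peaks, with a median of 498 bp in shGFP and 386, 496 and 492 bp in shLuc, against 899.5, 675, 867 and 845 bp. Against shLuc replicate 1 the shares for shGFP peaks near genes were far lower at every width, from 8.36% under 350 bp to 34.4% at 800 bp or more.

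The widest regions of each pattern show its range. Among those in all 4 libraries they were chr2:122375469-122378451, 2983 bp and 6307 bp upstream of Shf, then chr2:116559507-116562121 of 2615 bp and chr17:22875634-22877968 of 2335 bp, both nearest to a processed pseudogene. Among those only in shGFP the widest was chr1:78215944-78217679, a stretch of 1736 bp with 67.1% GC that lay 18810 bp upstream of Pax3, a factor of neural crest and muscle precursors. The next was chr17:14992534-14993996, in which 100% of the 50-base words occurred elsewhere in the genome, followed by chr11:66984059-66985506. Among those that missed only shGFP they were chr15:81522252-81523625, chr8:72333679-72334669, which lay 14646 bp downstream of the start of Klf2, a naive pluripotency factor, and chr6:53201025-53201990.

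Most of the regions were narrow, moderately GC-rich and poor in CpG. Their width ran from 219 to 2983 bp with a median of 531 bp. The median width was 369 bp for regions found in 1 library, 531 bp in 2, 678 bp in 3 and 786 bp in all 4. Merging widens a region with each library that adds a peak, so this order is in part built in. GC content averaged 49.4%, with 5% of regions below 40.7% and 5% above 58.9%. The unmasked sequence in which such regions could lie averaged 42.5% GC. The median observed over expected CpG ratio was 0.232, where 1 would mean as many CpG as the base composition gives. Masked repeats took up 14.4% of the bases on average. Of the 9791 regions 8169 (83.4%) held no 50-base word that occurred elsewhere in the genome, and 318 (3.25%) consisted mostly of such words. In those a read could have been placed at random among copies.

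The libraries gave nearly the same composition apart from 1. Their GC content averaged 49.5% for shGFP, against 52.3%, 49.4% and 49.5% for shLuc (mean 50.4% ± 1.66, SD, n = 3). shLuc replicate 1 was the highest, and without it the shLuc mean was 49.45%. CpG-rich regions, with at least 50% GC and a CpG ratio of at least 0.6, numbered 374 (3.82%). They made up 4.30% of the regions of shGFP and 11.1%, 4.14% and 4.89% of those of shLuc, again highest in replicate 1. They were found in all 4 libraries far more often, 133 of 374 (35.6%) against 9.04% of the other regions. Seen from the other side, 13.5% of the regions in all 4 libraries were CpG-rich (11.5 to 15.8%), against 2.47%, 2.57% and 3.26% of those in 1, 2 and 3 libraries.

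**Figure D2:**
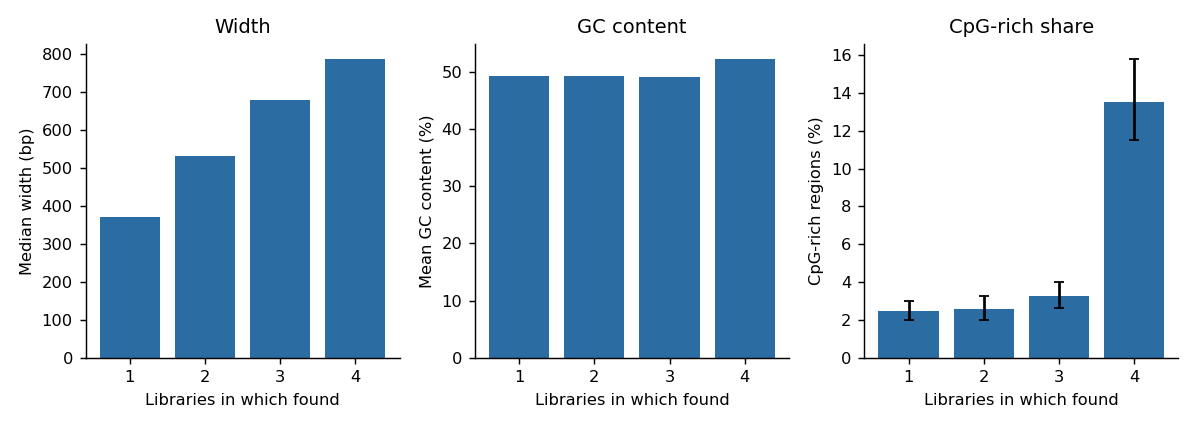
Median width (bp), mean GC content (%) and share of CpG-rich regions (%, with Wilson 95% intervals) of the intergenic regions near genes, by the number of libraries in which they were found. The regions in all 4 libraries stand out with a CpG-rich share of 13.5%, and the median width rises from 369 to 786 bp. Regions in all 4 libraries are limited to those of shLuc replicate 1, the shortest list, of whose regions 11.1% were CpG-rich.

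CpG-rich regions, the base composition that is typical of promoters, were a small and distinct group. They had a median width of 704 bp against 526 bp for the others and lay closer to a start, at a median of 9286 bp against 12432 bp. Their share was 8.11% at 1 to 2 kb from a start and 2.76% at 20 to 50 kb. The 3 widest in all 4 libraries, chosen after the values were seen, were chr7:38084726-38086720, 12649 bp downstream of the start of Ccne1, chr8:83874770-83876698, nearest to the noncoding gene Gm26721, and chr1:171101865-171103634, 10284 bp upstream of Cfap126, a gene of motile cilia. Of 374 CpG-rich regions 25 (6.68%, 4.57 to 9.68%) held the E-box CACGTG, against 2.67% of the others. Copies of a repeated sequence count as separate regions in these shares and in the interval. On average 7.90% of the 50-base words of CpG-rich regions were repeated, against 3.76% in the others. The AP-1 motif TGANTCA went the other way, at 3.48% against 11.1%, and the CTCF motif was at 1.87% against 5.08%. This group was chosen by its GC and CpG content, and CACGTG holds a CpG whereas TGANTCA holds none. The part of that choice in these motif shares was not tested. The OCT4-SOX2 composite was in 0 of 374, which by the Wilson interval allows a share of up to 1.02%, against 0.966% of the others.

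The regions kept a broad range of distances to the nearest start. The median was 12263 bp, and the middle 50% lay between 6292 and 22922 bp. Per library it was 12275 bp in shGFP and 10815, 12560 and 12505 bp in shLuc. Because sequence far from any start is plentiful, counts were set against the unmasked intergenic sequence at the same distance, which came to 505.7 Mb in all. The density was 16.3 regions per Mb at 1 to 2 kb (exact Poisson 95% interval 14.8 to 17.9), 19.7 at 2 to 5 kb and 25.1 at 5 to 10 kb (24.1 to 26.2). It was 21.7 at 10 to 20 kb and 15.4 at 20 to 50 kb (14.8 to 15.9). The highest density thus lay 5 to 10 kb from a start and not next to it. Distance was taken from the nearer edge, so a region that reached to within 1 kb counted as a promoter region, which lowers the first value by construction.

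In each library the density was highest at 5 to 10 kb, while the order of the other distances varied. The density at 5 to 10 kb was 1.56 times that at 1 to 2 kb in shGFP and 1.64, 1.55 and 1.54 times in shLuc (mean 1.57 ± 0.0536, SD, n = 3). Against 20 to 50 kb it was 1.64 times higher in shGFP and 2.12, 1.57 and 1.58 times in shLuc. The fall with distance was steepest in shLuc replicate 1, the shortest list. The GC content of the eligible sequence also fell, from 43.2% at 5 to 10 kb to 41.7% at 20 to 50 kb, and its part in the density was not tested. Among the autosomes the density ran from 16.1 per Mb on chromosome 12 to 25.9 on chromosome 11.

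**Figure D3:**
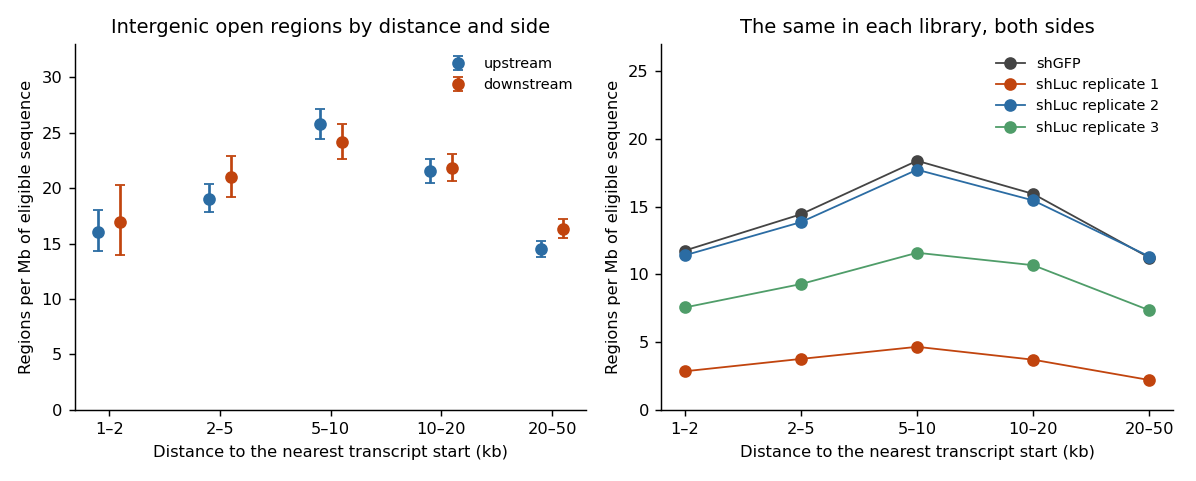
Intergenic open regions per Mb of eligible unmasked sequence, by distance to the nearest transcript start (kb). Left, upstream and downstream regions of all libraries with exact Poisson 95% intervals, and right, each library on its own. Both sides and all 4 libraries were highest at 5 to 10 kb, at 25.8 upstream and 24.2 downstream per Mb.

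Upstream regions were not favoured once the available sequence was counted. Of the 9791 regions 5611 lay upstream of the nearest start and 4180 downstream, so that 57.3% were upstream (56.3 to 58.3%). The eligible sequence was itself 58.0% upstream, because the gene body takes up the downstream side. Per library the upstream share was 57.4% in shGFP and 58.6%, 56.7% and 57.0% in shLuc (mean 57.4% ± 0.999, SD, n = 3). The density was 19.1 per Mb upstream (18.6 to 19.7) and 19.7 downstream (19.1 to 20.3), and these intervals overlap. Of the 5 distance classes the intervals of the sides stayed apart at 20 to 50 kb, at 14.5 upstream (13.7 to 15.2) and 16.4 downstream (15.5 to 17.2).

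The nearest gene was often not a protein-coding one. Of the 9791 regions 4053 (41.4%) had the start of a protein-coding gene nearest, 2146 (21.9%) that of a processed pseudogene, which is a copy of an mRNA put back into the genome, and 1669 (17.0%) that of a lincRNA. The eligible sequence near protein-coding starts held 26.0 regions per Mb (25.2 to 26.8), that near lincRNA starts 18.5 (17.6 to 19.4) and that near processed pseudogenes 14.9 (14.3 to 15.5). Regions were thus denser near coding genes, and near pseudogenes they were below the mean of 19.4 per Mb. Starts of small RNAs took further regions, with 285 nearest to an snRNA and 227 each to a snoRNA and a miRNA. The median distance to the nearest protein-coding start was 26339 bp, and 6855 regions (70.0%) had one within 50 kb.

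The regions spread over many genes. They were nearest to 7544 genes, of which 5792 had 1 region, 371 had 3 or more and 28 had 5 or more. Among them were 3176 of 20807 autosomal protein-coding genes (15.3%). The most regions belonged to Rny3, a gene for a small noncoding Y RNA on chromosome 6, with 7 in shGFP and 5, 6 and 5 in shLuc, and 4 of the 7 were found in all 4 libraries. All 7 lay upstream, between 2940 and 41237 bp away. In 6 of them 83.0% or more of the 50-base words occurred elsewhere in the genome, so which copies were open cannot be told from these lists.

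The next genes are given by their number of regions, with ties ordered by the shorter distance. Ddit4, which encodes a stress-induced inhibitor of mTORC1, had 6, with 4 in shGFP and 0, 4 and 2 in shLuc. They lay on both sides, from 34620 bp downstream to 12633 bp upstream of the start. Igfbp2, which encodes a carrier of insulin-like growth factors, also had 6, all of them in shGFP and 0, 3 and 3 in shLuc. The widest, chr1:72805063-72806631 at 17872 bp upstream, was in shGFP and in shLuc replicates 2 and 3. The noncoding gene 5830428M24Rik had 6 and the pseudogene Gm8748 had 6, none in all 4 libraries. The pseudogene Gm14270 had 6, of which 2 were in all 4 libraries. With 5 each followed A430010J10Rik, Gm11880, Olig3, which encodes a factor of neural progenitors, and Gm33299. Trim27, which encodes a tripartite-motif protein, also had 5 and was picked after its values were seen. It had 4 in shGFP and 3, 5 and 4 in shLuc, and 3 of them, at 9986, 32374 and 43799 bp downstream, were in all 4 libraries. None of the 12 regions near Ddit4 and Igfbp2 was found in shLuc replicate 1, which held only 1651 of all 9791 regions.

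The core pluripotency genes show how the nearest start hides the gene of interest. Open sites that touched a gene body or lay within 1 kb of a start fall outside the rule and are not counted here. By the nearest start of any gene Pou5f1 had 2 regions, Nanog 1, Esrrb 1, Zfp42 3, and Sox2 and Klf4 none. By the nearest protein-coding start Sox2 had 5 and Klf4 3, since the nearest starts there were those of lincRNAs, small RNAs or a pseudogene. Near Pou5f1 the closest region was chr17:35503902-35504324, 1694 bp upstream, with a peak of 423 bp in shLuc replicate 1 and none in the other 3 libraries. The other, at 14955 bp upstream, had peaks of 247 bp in shGFP and 613 bp in shLuc replicate 3. Neither region was found in more than 2 libraries.

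The region closest to Nanog was wide and found in 3 libraries. chr6:122702189-122703201 lay 4288 bp upstream of the Nanog start, with peaks of 885 bp in shGFP and 830 and 774 bp in shLuc replicates 2 and 3, and none in replicate 1. Its nearest start was that of the pseudogene Gm10224, at 3161 bp. The region that had Nanog itself as nearest gene, 12349 bp downstream, was found only in shGFP. Among these intergenic regions the closest downstream of Sox2 was 84474 bp from its start and found only in shGFP. The region of Sox2 in all 4 libraries, chr3:34795355-34796268 at 144950 bp, had peaks of 694 bp in shGFP and 594, 711 and 672 bp in shLuc.

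Klf4, whose product keeps ESCs in the naive state, had 2 regions in all 4 libraries. chr4:55514546-55515332 lay 16438 bp downstream of its start, nearest to the pseudogene Gm12507, with peaks of 561 bp in shGFP and 402, 694 and 640 bp in shLuc. The other, 1190 bp wide, lay 118462 bp upstream. Another region, 51051 bp downstream, was in shGFP and in shLuc replicates 1 and 2. Zfp42 had 1 region in all 4 libraries, chr8:43320702-43321391 at 13722 bp upstream, with peaks of 676 bp in shGFP and 509, 647 and 601 bp in shLuc. Its other regions at 24740 and 26523 bp were each in 1 library, and a region at 100296 bp, for which it was the nearest coding gene only, missed only shLuc replicate 1. Esrrb, whose product is an orphan nuclear receptor, had 1 region as nearest gene, found only in shGFP and 43349 bp from the start of a shorter transcript, and a second by nearest coding start, found only in shLuc replicate 2.

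**Figure D4:**
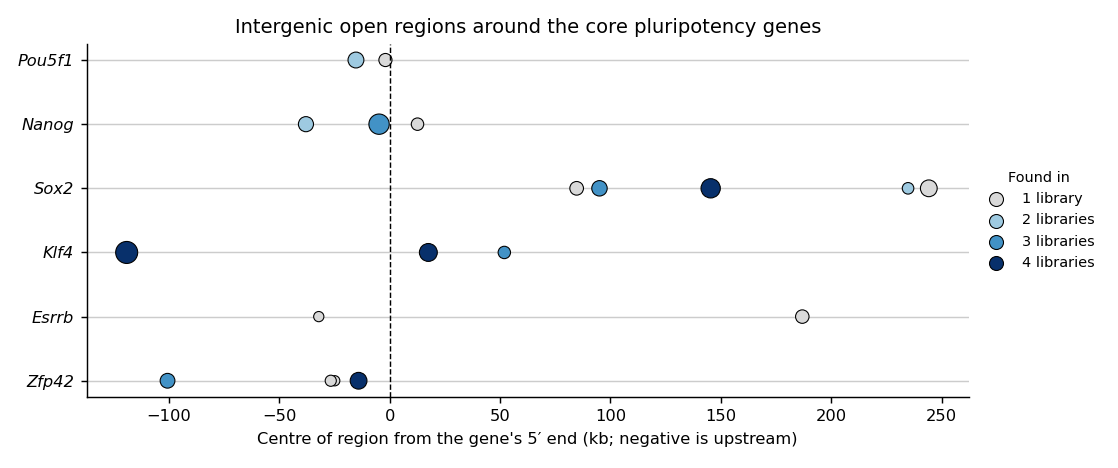
Intergenic open regions whose nearest protein-coding start was that of 1 of 6 core pluripotency genes. The x axis gives the centre of the region from the gene's 5′ end (kb, negative is upstream), circle area grows with width, and shade gives the number of libraries. Klf4, Sox2 and Zfp42 had regions in all 4 libraries, whereas those of Pou5f1 and Esrrb were in 1 or 2.

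Gene lists were set beside all protein-coding genes, and no test was made of them. They were chosen with earlier results of these data known, so the shares and densities only describe these lists. Of 53 pluripotency and LIF pathway genes 23 (43.4%) were nearest to a region, against 15.3% of all protein-coding genes. They had 38 regions, with 31 in shGFP and 10, 26 and 21 in shLuc. That is 53.5 per Mb of their eligible sequence (37.8 to 73.4) against 26.0 for all protein-coding genes. Of the 38 regions 6 (15.8%) were found in all 4 libraries, against 10.8% near all protein-coding genes. Fgfbp1, Socs3, Sall1, Sall4 and Zfp42 had 3 each.

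The regions near these genes differed in how widely they were found. Fgfbp1 had 1 at 1210 bp upstream, with peaks of 477 bp in shGFP and 294, 601 and 617 bp in shLuc, and its others were in 3 libraries and in shGFP only. Socs3 had 1 in all 4 libraries, chr11:117949411-117950108 at 19078 bp downstream, with 68.3% GC and peaks of 674 bp in shGFP and 545, 654 and 649 bp in shLuc. A second near Socs3, 5180 bp downstream, missed only shLuc replicate 1. Sall4 had 1 in all 4 libraries at 22924 bp upstream, with peaks of 780, 732, 748 and 757 bp, and both others were only in shLuc replicate 2. Sall1, which encodes a zinc-finger factor of the same family, had 2 that missed only shLuc replicate 1 and 1 that was only in replicate 2.

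Genes of development were also nearest to regions. Of 51 lineage transcription factors 21 (41.2%) were nearest to a region and had 28 regions, 39.5 per Mb (26.3 to 57.2), against 26.0 for all protein-coding genes, and the interval overlaps that of the pluripotency list. Of the 28, 18 were in shGFP and 3, 19 and 13 in shLuc, and 1 was in all 4 libraries. That was chr3:127639779-127640679, 6644 bp downstream of Neurog2, a factor of neurogenesis. Tfap2c, which encodes AP-2γ of trophoblast and germ cells, had 4, of which the widest lay 24823 bp downstream and missed only shLuc replicate 1. Isl1, Six2 and Brachyury (gene T) had 2 each, and that 33146 bp downstream of the Brachyury start held a CTCF match.

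Of 48 genes for signalling ligands, receptors and inhibitors 22 (45.8%) were nearest to a region. They had 36 regions, 28 in shGFP and 7, 21 and 18 in shLuc, or 36.3 per Mb (25.4 to 50.2), and 5 were in all 4 libraries. Axin2, a target and inhibitor of WNT signalling, had 4, at 10217, 17855, 21764 and 30730 bp, each in 1 or 2 libraries. Lef1, which encodes a WNT effector, had 3 upstream, the widest in shGFP and in shLuc replicates 2 and 3. Smad7, which encodes an inhibitor of TGF-β signalling, had 3 downstream, of which 1 was in all 4 libraries. Id3 and Bmp4 had 2 each, all of them in 1 or 2 libraries. Lefty1 and Lefty2, which encode inhibitors of NODAL signalling and were picked after their values were seen, had 1 each in all 4 libraries, at 9588 and 3050 bp upstream. The intervals of these 3 lists overlap.

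The remaining lists were short and had between 1 and 6 regions each. Of 20 housekeeping genes, with 21 annotated entries, 4 were nearest to a region, among them Ldha, Eef1a1 and Ywhaz with 1 each. Of 7 chromatin modifiers from the larger panel that the study knocked down 3 were, among them Prmt5 with 2 and Rrp8 with 1. No region of this list was in all 4 libraries. Of 16 genes of the 2-cell stage on the autosomes 1 was nearest to a region, Tcstv1, with a peak in shLuc replicate 3 only. Of 21 markers of other cell types 5 were, Col1a2 with 2 and Krt14, Ins1, Kdr and Pecam1 with 1 each, and none of these 6 regions was in all 4 libraries. Near all protein-coding genes that share was 10.8%, so its absence in lists of so few regions says little. The density was 50.3 per Mb for the housekeeping genes (13.7 to 128.8), close to the 53.5 of the pluripotency list. It was 70.2 for the chromatin modifiers (22.8 to 163.9), 19.3 for the markers of other cell types (7.08 to 42.0) and 7.87 for the genes of the 2-cell stage (0.199 to 43.9). All of these intervals are wide.

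Regions lay more often near genes whose own start was open. In shGFP 33.5% of the regions (32.4 to 34.6%) had as nearest gene a gene with a peak of the same library within 1 kb of a start, while such genes held 24.3% of the eligible sequence. In shLuc the shares were 27.01%, 31.9% and 29.0% of the regions against 16.4%, 24.1% and 21.6% of the sequence. The ratio was 1.38 in shGFP and 1.65, 1.32 and 1.34 in shLuc (mean 1.44 ± 0.182, SD, n = 3). Within 1 type of gene the ratio was nearer to 1. When the nearest gene was protein-coding the shares were 67.01% against 63.2% in shGFP, and the ratio was 1.06 in shGFP and 1.10, 1.05 and 1.05 in shLuc (mean 1.07 ± 0.0273, SD, n = 3).

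The CTCF motif was the match that stood farthest above the surrounding sequence. The central 200 bp of each region were searched on both strands for 14 motifs, and so were 272377 windows of 200 bp in the eligible sequence. CTCF matched in 485 regions (4.95%, 4.54 to 5.40%) and in 0.142% of the windows, a ratio of 34.8. By library it was in 5.09% of the regions of shGFP and in 4.97%, 4.61% and 4.03% of those of shLuc (mean 4.53% ± 0.473, SD, n = 3). The share was 5.02% of regions in 1 library, 6.59% in 2, 3.86% in 3 and 3.66% in all 4. The windows averaged 41.6% GC and the regions' centres 50.1%, and the part of base composition in any of these ratios was not tested.

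Motifs of the pluripotency factors were rarer. The OCT4-SOX2 composite, shown above near Gm25100 and Gm11189, matched in 91 regions (0.929%, 0.758 to 1.14%) and in 0.163% of the windows, a ratio of 5.69. By library the share was 1.02% in shGFP and 0.969%, 1.04% and 1.09% in shLuc (mean 1.03% ± 0.0622, SD, n = 3). It was 0.698% for regions in 1 library and 1.42% for those in all 4, with 14 of the 91 in all 4. These regions lay farther from a start than the rest, at a median of 16605 bp, and had 44.9% GC. None of the 9791 held both a CTCF and an OCT4-SOX2 match. Both motifs were rare, at 4.95% and 0.929%, so few regions with both would be looked for in any case. The overlap was not tested.

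The octamer ATGCAAAT was in 2.76% of the regions and 1.48% of the windows, and 20 regions held it together with the composite, with which it can overlap. The KLF motif GGGNGTGGC was in 2.37% against 0.657%, and the ESRRB and NR5A motif TCAAGGTCA in 0.735% against 0.424%. The STAT motif TTCCNGGAA, read by the factor that LIF activates, was in 1.02% against 0.633%. The SOX motif ACAATGG was close to its background, at 3.595% (3.24 to 3.98%) against 3.26%. AP-1 (TGANTCA) was the most frequent, at 10.8% against 7.06%, but it was also frequent in the windows.

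Motifs typical of promoters were, over all the regions, present at lower shares than at promoters. NFY (CCAATCAG) matched in 1.65% of the regions, 0.680% of the windows and 2.49% of promoter regions, and in 3.66% of the regions found in all 4 libraries. ETS (CCGGAAGT) was in 0.490%, 0.129% and 3.03%, and NRF1 (GCGCATGCG) in 0.194%, 0.0312% and 1.01%. YY1 (AAGATGGCG) was in 0.184%, 0.0749% and 1.43%. The E-box CACGTG was in 2.82% of the regions, 1.92% of the windows and 4.66% of promoter regions. Of the regions in all 4 libraries 5.08% held it. TEAD (CATTCCA) differed from these, with 4.50% of the regions, 3.81% of the windows and only 1.88% of promoter regions. A match says that these letters are present and is not a bound site.

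**Figure D5:**
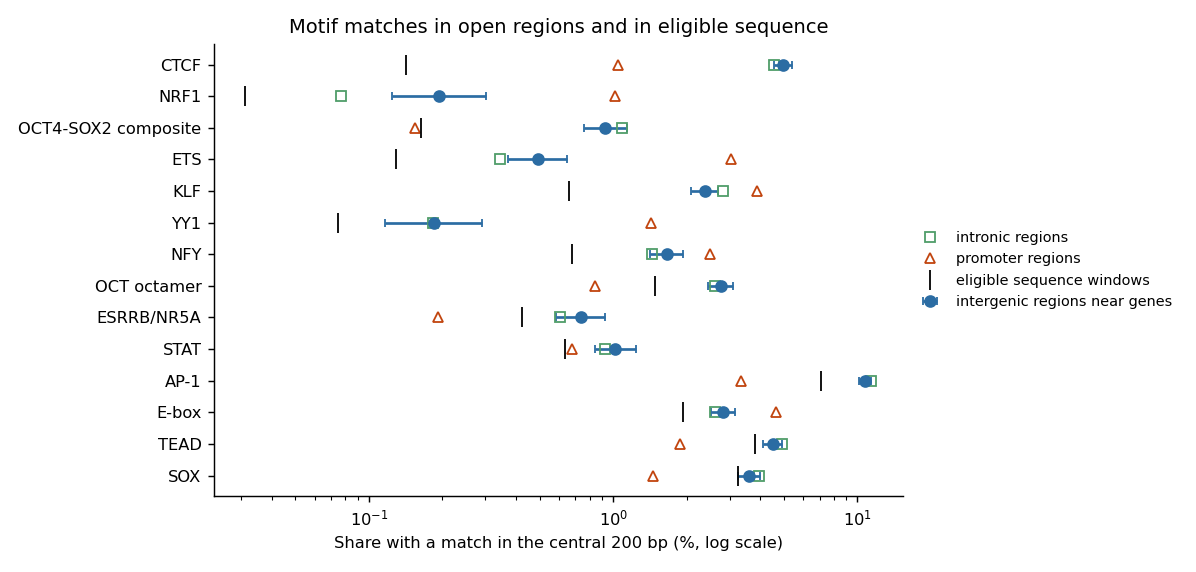
Share of regions or windows (%, log scale) with a match to each of 14 motifs in the central 200 bp. Filled circles are intergenic regions near genes with Wilson 95% intervals, open squares intronic regions, open triangles promoter regions, and bars windows of the eligible sequence. CTCF, in 4.95% of the regions against 0.142% of the windows, has the widest gap.

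Against the other classes of region the library is the replicate, and with 4 libraries an exact two-sided sign-flip permutation test cannot give a p below 1 in 8, so no difference could pass a threshold of 0.05. GC content was above that of 1814 intergenic regions over 50 kb from a start in all 4 libraries, by 2.70 percentage points in shGFP and 1.04, 2.83 and 2.55 in shLuc (the smallest p possible). It was above that of 10418 intronic regions by 0.831 and by 1.39, 0.754 and 0.889 points, and its difference from 16194 promoter regions ran from -10.4 to -8.69 points. The CTCF share was above that of the gene deserts in all 4 libraries, by 1.55 to 3.01 points. Against intronic regions it differed by 0.484 in shGFP and by -0.105, 0.375 and 0.475 in shLuc, with no common direction. In the gene deserts the OCT4-SOX2 composite matched in 1.32% of 1360 regions in shGFP. In shLuc it matched in 1.96% of 153, 1.15% of 1308 and 1.54% of 842 regions, so these shares rest on few matches. The OCT4-SOX2 share near genes was below that of the gene deserts in all 4 libraries, with a mean difference of -0.463 ± 0.380 points (SD, n = 4). Of a library's own regions 13.7% in shGFP and 59.6%, 14.0% and 21.1% in shLuc were found in all 4 libraries, which was 2.67 to 4.13 points above intronic regions. The regions found in all 4 are the same ones for each library, set over lists of different length. The differences in this share are therefore not 4 separate observations. Against the gene deserts this share was higher in 3 libraries and differed by -12.3 points in shLuc replicate 1.

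At each limit of the rule regions lay close on both sides. The closest region inside lay 1001 bp upstream of Rtbdn, was found in 1 library and had 65.5% GC, and the first left out lay 994 bp from a pseudogene start and was found in all 4. The farthest inside lay 49979 bp upstream of Trabd2b and the nearest left out at 50051 bp. The region inside with the most repeats had 49.9% of its bases masked, and that just outside had 50%.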

How the data were processed

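The authors deposited 1 peak list per library with the chromosome, start and end of each peak and no height, score or p-value, so presence and width were the only measurements. Per the labels the tools were bcl2fastq, Bowtie2 and MACS2 and the build mm10, and the peak threshold and any shift for the transposase are not given in the sources used here. According to the study's methods, in a section on ChIP-seq and accessibility data downloaded for reanalysis that may not cover these libraries, the best alignment of each read was kept, ties were placed at random, mitochondrial and unassigned sequence was dropped, and concordant pairs were used. Libraries were not pooled.

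Overlapping autosomal peaks (at least 1 bp) of the 4 lists were merged, and a library had a region when a peak of it lay there. Repeats were the soft-masked bases of GRCm38. Transcript starts, gene bodies and types came from GENCODE mouse release 21, and distance ran from the nearer edge of a region to the nearest start, with coding genes taken first where starts coincided. Eligible sequence was the unmasked sequence outside gene bodies and over 1 kb to 50 kb from a start, counted at every 10 bases. Motif windows of 200 bp were taken from it every 2 kb. A word of 50 bases was repeated when it occurred more than once on either strand. Genes were named by rule: the 10 nearest to the most regions, up to 5 per list, and the 6 core genes. The 3 widest regions per pattern were named as well, and other items are said to have been chosen after their values were seen. Some items that the rule names are not reported here. Printed windows of 120 bp were moved within the central 200 bp to hold a match. The members and lists were chosen with earlier results of these data known.

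Wilson and exact Poisson 95% intervals cover counting error over regions only. Paired differences between classes were tested by an exact sign-flip permutation over the 4 libraries. Alternatives changed the repeat limit, the starts, the distance limits, the merging, the presence call, list length, the chromosomes, or left out 1 shLuc library. Python 3.11.15, numpy 2.4.6, scipy 1.17.1, pandas 2.3.3, numba 0.67.0 and matplotlib 3.10.9 were used. On simulated data, 196 of 196 regions and nearest starts and 280 of 280 planted motifs were recovered.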

Additional observations from a re-analysis of the deposited data

How the results depend on the processing

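Of 108 values (9 results under 12 alternatives) 82 stayed within their spread, interval or 1.5 times the count, and 26 moved. Keeping the widest peaks at equal list length gave 3501 regions, 7.60% in all 4 libraries, 310 only in shGFP, 76 missing only from shGFP, and peak shares of 8.22% in shGFP and 9.004% in shLuc, the reverse of the order in the full lists. This setting changed list length and peak choice together, and the cause was not tested. With no repeat limit the share in all 4 libraries was 15.4%, 40 were missing only from shGFP, and the peak shares were 26.5% in shGFP and 22.9% in shLuc. With starts of protein-coding genes only, 11.01% were in all 4 libraries, 12.5% of shGFP peaks were in the regions and 62.5% lay upstream. Presence by 50% coverage gave 6.14% in all 4 libraries. The shGFP peak share was 14.2% at repeats of at most 25%, 17.1% beyond 2 kb and 12.5% within 20 kb, where the shLuc mean was 10.0% and 60.4% lay upstream. Neither this upstream share nor that for protein-coding starts was set beside the upstream share of the eligible sequence. Leaving out each shLuc library gave 12.3 to 35.2% in all remaining libraries, 1678 to 3042 only in shGFP and 37 to 386 missing only from shGFP. GC content moved under no alternative run.

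No paired analysis was possible because there was only 1 shGFP library, whose label carries no replicate number. The lists carry no depth, so a region missing from a list was not detected there at that depth. The lists hold no peak heights, so openness could not be compared, and in repeated sequence the copy that was open cannot be told from the lists.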
